A study of Mus musculus with 8 samples.

Results

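TRBV31 is the V gene of the mouse T cell receptor β (TRB) locus that is read from the opposite strand. Its chains were taken from single-cell T cell receptor (TCR) tables of CD8+ T cells. Every barcode without a multiplet mark whose primary TRB chain was called TRBV31 was counted, whatever number followed the gene name. This gave 5930 barcodes of 188544 with a TRB chain, or 3.15%, over 14 tables. The study asked whether loss of PD-1 changes the effector fate of CD8+ T cells in the thymus and what thymic cells contribute to the repertoires of spleen and tumor. All mice were Pdcd1fl/fl, and the Pdcd1 cKO mice also carried E8I CD8-Cre, which deletes in CD8+ T cells after positive selection and therefore after the β chain has been assembled. Thymus and spleen were taken from adult mice without tumors, and thymus and tumor from mice bearing B16-OVA or B16-F10 melanoma. There were 7 thymus tables, 2 spleen tables and 5 tumor tables from 7 mice, and mouse and tissue are those of the name each table was deposited under. The labels do not say which of these mice were Pdcd1 cKO or which tumor each one bore, so no genotypes or tumor models were compared. The CD8+ T cell gate was set by bead isolation. These tables hold no transcripts other than TCR chains, so that the cell type could not be checked against markers here. Thymus tables held 2426 barcodes with the TRAV11 and TRAJ18 pair, called invariant NKT-like below, and whether those cells were CD8+ could not be checked.

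A β chain is built in 2 steps, in which a D segment first joins a J segment and a V gene then joins the DJ product. In the mouse nearly all TRBV genes lie upstream of the D, J and C segments in the same orientation, and their joining deletes the DNA between them. TRBV31 lies downstream of the last constant gene and points the other way, so it joins by inversion and the DNA between is kept on the chromosome. In the GENCODE vM39 annotation of build GRCm39, Trbv31 occupied chr6:41534627-41535386, and 1 of 22 annotated Trbv genes, Trbv31 itself, was on the minus strand. Its second exon, chr6:41534627-41534918, holds the V domain and lies 9340 bases beyond the end of Trbc2. Trbd1 lay 24480 bases from Trbv31, whereas 251210 bases separated Trbd1 from Trbv30, the nearest V gene on the other side.

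The germline end of TRBV31 and its recombination signal are shown because the joined chains described here start from them. The coding end supplies the first 14 bases of the complementarity-determining region 3 (CDR3), the loop that spans the V, D and J joins. The signal that follows consists of a heptamer, a spacer of 23 bases and a nonamer, and capitals mark heptamer and nonamer in the 4 signals printed.
TRBV31 coding end, minus strand, chr6:41534627-41534640: TGTGCCTGGAGTCT
TRBV31 signal, minus strand, chr6:41534588-41534626: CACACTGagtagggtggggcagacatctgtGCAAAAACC
TRBV30 signal, plus strand, chr6:41258925-41258963: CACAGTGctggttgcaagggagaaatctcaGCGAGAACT
TRBV13-2 signal, plus strand, chr6:41098767-41098805: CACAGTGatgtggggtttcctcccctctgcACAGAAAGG
TRBV1 signal, plus strand, chr6:40868820-40868858: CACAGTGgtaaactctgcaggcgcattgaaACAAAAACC
TRBV1 carried the consensus heptamer and nonamer without a change, and was the reference for the positions given here, which are counted from 1 at the 5′ base of each element. The TRBV31 heptamer differed from it by G5C, and its nonamer by A1G. Of the 22 V genes, 7 had the consensus heptamer at the annotated end of the gene, and TRBV31 was the 1 gene with the heptamer shown. For Trbv3 and Trbv21 the annotated end did not meet a heptamer. No more than 1 change in the nonamer was found in 4 V genes, TRBV31 among them.

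The tables did not hold fully separate cells, and this touches every count given here. In this assay the well of the first barcoding round marks the table, and the wells of the second and the third round, together with the sublibrary, separate cells within it. Of the 5930 TRBV31 barcodes, 1515 (25.5%) shared their TRB chain, both later wells and sublibrary with a barcode in a table of another mouse. By table the share was lowest for mouse-164C tumor (16.9%) and highest for mouse-160A tumor (47.5%). Among pairs of TRBV31 barcodes from different mice that lay in the same wells and sublibrary, 1070 of 1312 (81.6%) had the same chain, against 0.505% of pairs that did not. The 657 sets of such barcodes contained at least 1 member with a single TRB transcript in 98.5% of cases, and the best covered member of a set had a median of 5 transcripts. Barcodes of the other TRBV genes were shared in the same way in 22.7% of cases. The main results were therefore also computed after all barcodes with the same chain, later wells and sublibrary were collapsed to the best covered one. Tables of the same mouse were included, and 4880 TRBV31 barcodes were left. Sets whose highest transcript count was tied between tables were left out whole, 3926 sets over all TRBV genes. Why the same chain recurred in the same wells was not tested.

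TRBV31 took a similar share of every repertoire by distinct chains, and an uneven share by cells. A distinct chain is a combination of V gene, J gene and CDR3 amino acid sequence within 1 table. In the thymus, TRBV31 made up 3.47% of TRB barcodes (mouse-155C), 3.44% (mouse-164B), 3.41% (mouse-160A), 3.33% (mouse-160C), 3.07% (mouse-155A), 2.98% (mouse-164C) and 2.96% (mouse-160B). The spleen tables held 2.83% in mouse-155A and 3.12% in mouse-155C. The 9 thymus and spleen values thus lay close together, and the tumor tables were the ones that spread.

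**Figure D1:**
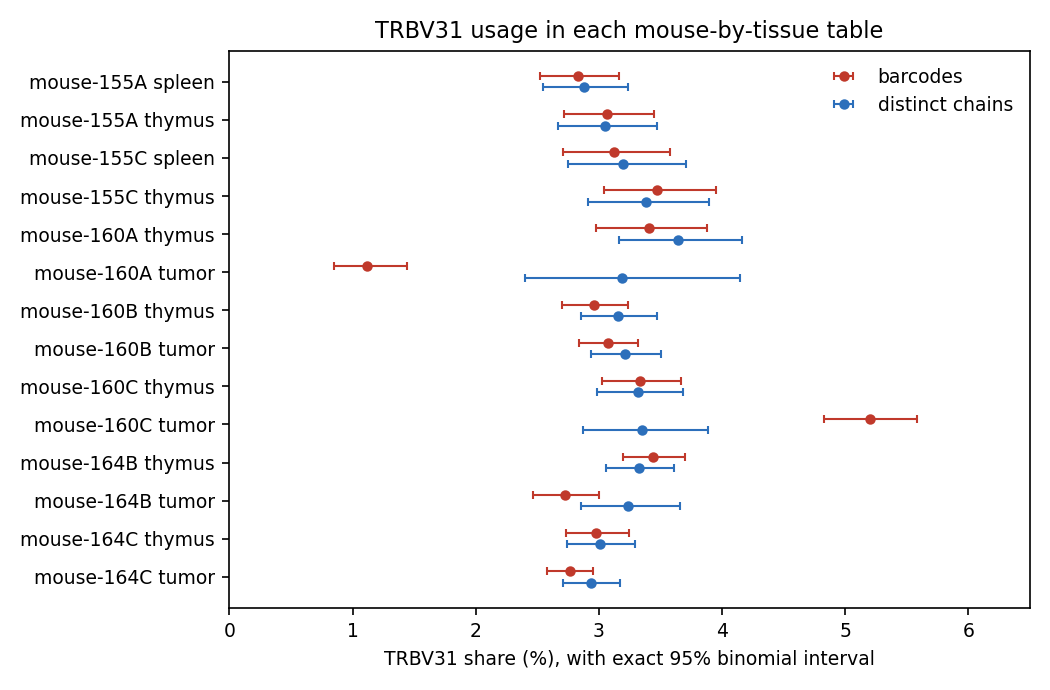
TRBV31 share of TRB barcodes (red) and of distinct TRB chains (blue) in each of the 14 tables, in percent, with exact 95% binomial intervals. The 14 shares of distinct chains lie between 2.88% and 3.64%, whereas the shares of barcodes in mouse-160A tumor (1.12%) and mouse-160C tumor (5.20%) stand apart.

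In tumors the share of barcodes was 5.20% (mouse-160C, exact 95% interval 4.83% to 5.59%, 701 of 13482 barcodes), 3.07% (mouse-160B), 2.76% (mouse-164C), 2.72% (mouse-164B) and 1.12% (mouse-160A, 0.852% to 1.44%, 59 of 5281). The highest value was 4.65 times the lowest over the 14 tables. By distinct chains the same 14 tables ran from 2.88% to 3.64% with a median of 3.21%, a ratio of 1.26 between the extremes. Mouse-160A tumor had 53 distinct TRBV31 chains of 1662 (3.19%) and mouse-160C tumor 170 of 5072 (3.35%), both within the range of the other tables. A single chain, described below, accounted for 385 of the 701 TRBV31 barcodes of mouse-160C tumor (54.9%). After the shared barcodes were collapsed, distinct chains ran from 2.80% to 3.59% and barcodes from 0.744% to 5.55%. When chains of more than 1 mouse were left out, the share of barcodes ran from 2.67% to 3.68% and that of distinct chains from 2.67% to 3.83%. This filter takes out expanded chains themselves, among them the chain with 385 barcodes, and so brings the shares by barcodes toward those by distinct chains. Intervals cover counting error only.

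Each mouse gave 2 tables, and thymus and second tissue were set side by side without a test. By barcodes, TRBV31 was lower in the second tissue than in the thymus of 5 of 7 mice, and the exact intervals of the pair overlapped in 4 of them all. The 3 mice without overlap were mouse-160A (thymus 3.41%, tumor 1.12%), mouse-160C (3.33% and 5.20%) and mouse-164B (3.44% and 2.72%). By distinct chains it was lower in 5 of 7 mice, by at most 0.452 percentage points, and the intervals overlapped in all 7 mice. With shared barcodes collapsed it was lower in 4 of 7 mice by barcodes and in 5 of 7 by distinct chains. Overlap of intervals is not a test, and whether the tissues of a mouse differ by distinct chains was not tested.

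Among the 24 TRBV genes seen, TRBV31 ranked 16th by median share of barcodes, at 3.07%. TRBV2 stood next above at 3.23% and TRBV26 next below at 3.03%, and the range of TRBV31 over the tables contained the medians of both. The coefficient of variation of the TRBV31 share over the 14 tables was 6.20% by distinct chains and 26.9% by barcodes. By distinct chains this was the third lowest of the 19 TRBV genes whose median share reached 1%. The genes whose share of barcodes followed TRBV31 most closely across the 14 tables were TRBV4, TRBV1 and TRBV3, with mean absolute differences of 0.17, 0.18 and 0.20 in the log2 share after each gene's median was removed. The shares of 1 table sum to a fixed total, and a dominant clone of any other gene lowers them together.

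TRBV31 chains used the TRBJ1 cluster, the J segments that follow TRBD1, more often than other chains did. By mouse, as the mean of its 2 tables, the TRBJ1 share of distinct TRBV31 chains was 49.7% (mouse-160C), 45.3% (mouse-155C), 42.9% (mouse-160B), 41.0% (mouse-164C), 39.5% (mouse-164B), 36.9% (mouse-155A) and 35.9% (mouse-160A). Chains of all other TRBV genes in the same tables ranged from 33.9% to 37.7% by mouse. TRBV31 was higher in 7 of 7 mice and in 13 of 14 tables, and mouse-160A, with 34.0% against 34.6% in its tumor, gave the smallest difference. The mean difference was 6.32 percentage points ± 4.15 (SD, n = 7), with an exact sign-flip permutation p of 0.0156, the smallest that 7 mice can give, and an adjusted p of 0.0176 over the 18 TRBV genes that could be tested. This has to be read against a background in which 88.9% of the 18 genes passed the same test and 38.9% passed it as higher.

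**Figure D2:**
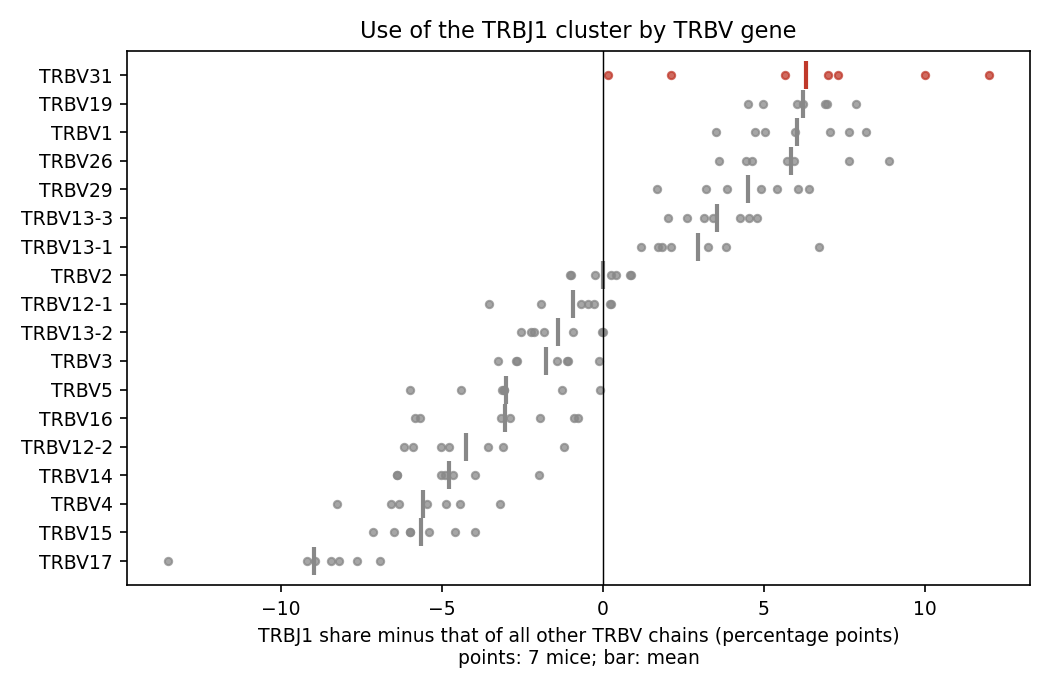
Difference in TRBJ1 share between the distinct chains of each of 18 TRBV genes and all other chains of the same tables, in percentage points. Each point is 1 of 7 mice and the bar is their mean. TRBV31 (red) has the highest mean, 6.32, and the widest spread, from 0.17 to 11.98.

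The difference of TRBV31 had the highest mean of the 18 genes, with TRBV19, TRBV1 and TRBV26, named after their values were seen, close behind and within its spread over mice. It was smaller and lost its call with barcodes of at least 2 TRB transcripts (4.45 points, adjusted p = 0.0721, exact test). With shared barcodes collapsed it was 5.98 points, higher in 6 of 7 mice, at an adjusted p of 0.0527 by the exact test, again outside the threshold of 0.05.

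Single J segments showed where the difference lay, with no test of each. TRBJ2-7 was the most used partner of TRBV31, with a median of 14.4% of distinct chains over the 14 tables, but it took 18.7% of the chains of other TRBV genes and was lower with TRBV31 in 7 of 7 mice, by 4.26 points on average. TRBJ2-1 followed with 13.5% against 13.3% and TRBJ1-1 with 13.1% against 11.96%. TRBJ1-5 was the least used, with 3.38% against 2.37%.

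**Figure D3:**
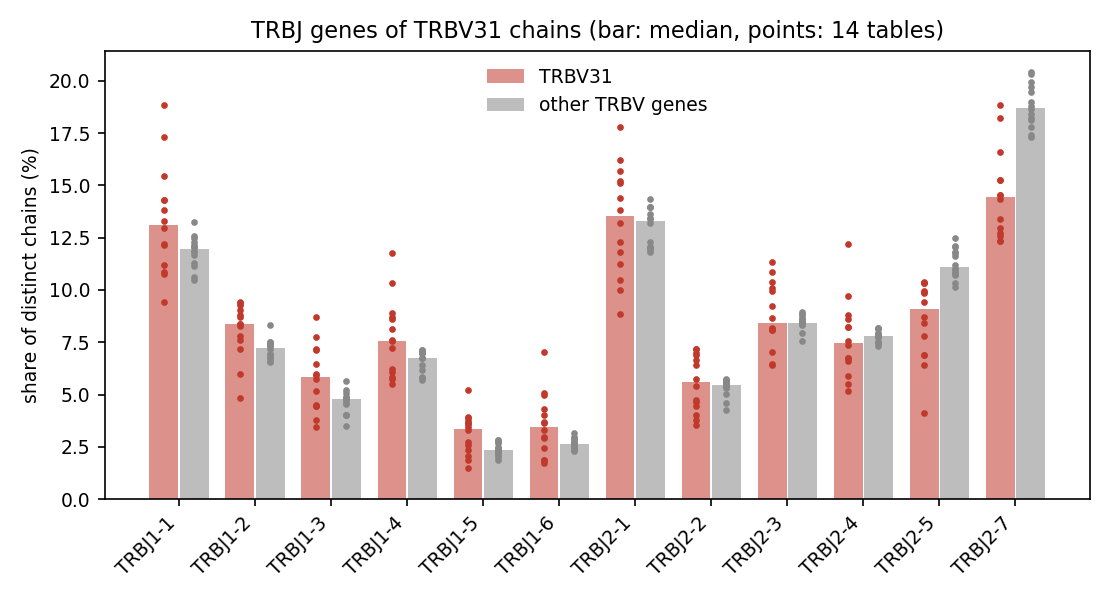
Share of each of 12 TRBJ genes among distinct TRBV31 chains (red) and distinct chains of other TRBV genes (grey), in percent. Bars give the median and points the 14 tables. TRBJ2-7 is lower with TRBV31, at 14.4% against 18.7%, and TRBJ1-2 is higher, at 8.37% against 7.24%.

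Singled out after their values were seen, TRBJ2-5 was lower with TRBV31 in 7 of 7 mice (median 9.08% against 11.1%) and TRBJ1-2 higher in 7 of 7 (8.37% against 7.24%). The rest of the TRBJ1 genes were each higher in 5 or 6 of the 7 mice.

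The D segment told chains apart within the TRBJ2 cluster, which can join to TRBD1 or TRBD2. In distinct TRBV31 chains with a TRBJ2 gene and a D call, TRBD1 was named in 32.2% (mouse-155C), 32.2% (mouse-155A), 35.5% (mouse-160C), 37.9% (mouse-160B), 37.99% (mouse-160A), 38.97% (mouse-164B) and 39.4% (mouse-164C). Other TRBV chains, pooled over their genes, ran from 44.0% to 45.2% in the same mice, above all TRBV31 values. Single genes spread more widely, from a mean over mice of 33.5% (TRBV4) to 68.2% (TRBV26). By difference TRBV31 ranked 15th from the top of 18 genes, with TRBV3, TRBV13-2 and TRBV4, named after their values were seen, lower still. TRBV31 was lower in 14 of 14 tables, by a mean of 8.31 percentage points ± 3.45 (SD, n = 7 mice, exact sign-flip permutation test, adjusted p = 0.0234). Of the 18 TRBV genes, 66.7% passed this test and 44.4% passed it as lower. Collapsing shared barcodes gave -8.32 points at an adjusted p of 0.0234 by the same exact test. D calls rest on short trimmed segments and contain errors. TRBD2 lies beyond the TRBJ1 cluster, yet it was named in 8.35% of the TRBV31 chains with a TRBJ1 gene and a D call and in 7.84% of the corresponding other chains. The D segment was called in 80.6% of TRBV31 chains with a TRBJ2 gene and in 78.1% of other chains with one.

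The germline residues of TRBV31 set the start of its CDR3. Of the distinct chains, 95.1% began with the residues CAW, against 0.00149% of the chains of other TRBV genes (2 chains). CAWS opened 72.7% of TRBV31 chains, CAWR 10.4% and CAWG 3.17%. At the next residue CAWSL was most frequent with 38.4% and CAWSP followed with 14.5%. The coding end alone encodes CAWS and the first 2 bases of the next codon, which is read as leucine when any of the 4 bases follows an intact end.

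TRBV31 chains had shorter CDR3 loops, by less than 1 residue. The mean length by mouse was 13.57 residues (mouse-164B), 13.64 (mouse-155C), 13.65 (mouse-160A), 13.67 (mouse-160C), 13.71 (mouse-160B), 13.72 (mouse-164C) and 13.83 (mouse-155A). Other chains averaged 13.97 residues over the mice, and TRBV31 was lower in 14 of 14 tables. The difference was -0.284 residues ± 0.0820 (SD, n = 7 mice, exact sign-flip permutation test, adjusted p = 0.0188), and 94.4% of the 18 TRBV genes passed this test and 50% passed it as lower. With shared barcodes collapsed it was -0.299 residues (adjusted p = 0.0201, exact test).

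**Figure D4:**
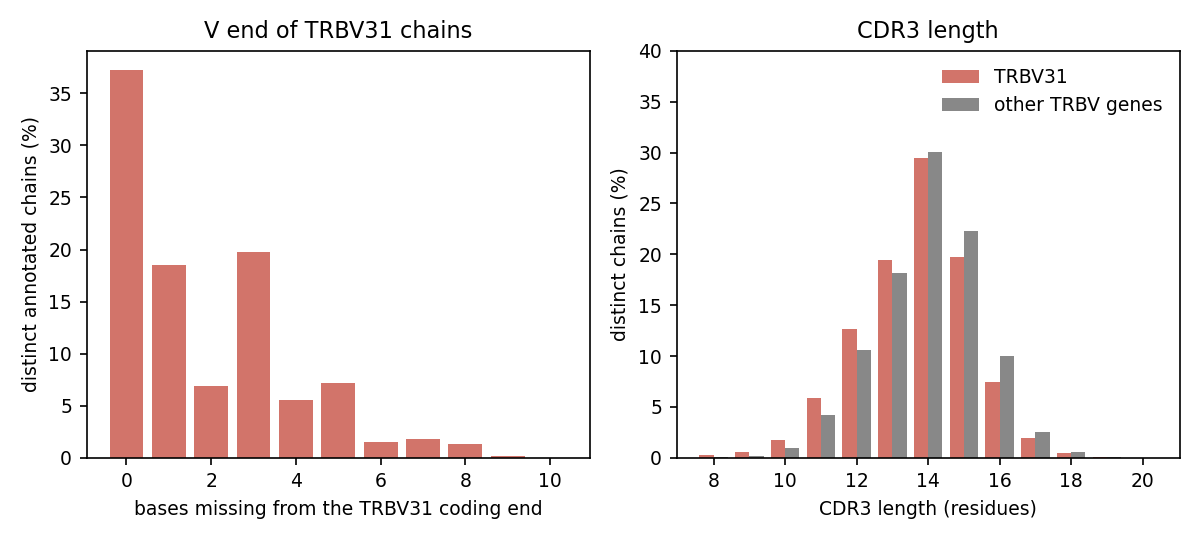
Left, bases missing from the 14-base coding end of TRBV31 in distinct annotated chains, in percent of 3629 chains. Right, CDR3 length in residues of distinct TRBV31 chains (red) and chains of other TRBV genes (grey), in percent. The end is intact in 37.2% of chains, and the TRBV31 lengths lie slightly to the left.

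The nucleotide sequences in the annotation showed which segment was shorter. TRBV31 contributed a median of 12.5 bases to the CDR3 over the 14 tables, against 13.8 bases for the V segments of other chains, and was lower in 14 of 14 tables. The stretch between V and J was longer with TRBV31 in 11 of 14 tables (median 10.3 against 9.96 bases), and the J segment in 12 of 14 (18.4 against 18.2 bases). These are values of the deposited alignments, without a test. Annotation was held for all TRBV31 barcodes of 11 tables, and for 94.2% in mouse-160B thymus, 39.01% in mouse-164B thymus and 30.99% in mouse-164C tumor.

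The coding end of TRBV31 was kept whole in 1351 of 3629 distinct annotated chains, or 37.2% (exact 95% interval 35.7% to 38.8%). The share ran from 34.7% in mouse-164B tumor to 41.8% in mouse-155C thymus, and the ranges of the tissues overlapped. A single base was missing in 18.5% of chains and 3 bases in 19.8%, the next most frequent losses, whereas 2 bases were missing in 6.94%. The mean loss was 1.84 bases, counted up to the first base that differs from the germline, so that added bases that happen to match are counted as kept. After an intact end the next base was A in a median of 57.4% of chains over the tables and C in 15.3%, and the pair AG, which is palindromic to the last bases of the coding end, followed in 32.9%. The numbers 1 and 2 that the files append to TRBV31 followed this junction. Of 333 chains named with a 2, 210 (63.1%) had an intact end followed by C, whereas 0 of 3296 chains named with a 1 had one.

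The share of TRBV31 cells with a second TRB chain did not pass the test against that of other cells. Of the 5930 barcodes, 800 (13.5%) had one. By mouse the share was 17.6% (mouse-164C), 14.03% (mouse-160B), 13.7% (mouse-164B), 12.2% (mouse-160C), 8.79% (mouse-155A), 7.30% (mouse-160A) and 7.23% (mouse-155C). TRBV31 was above the other TRBV genes in 6 of 7 mice, by 0.378 to 2.57 points, and below them in mouse-160A by 5.90 points. The mean difference was 0.0496 points ± 2.73 (SD, n = 7, exact sign-flip permutation test, adjusted p = 1), and 0% of the 18 TRBV genes passed this test, with 22.2% under an unadjusted p of 0.05. Mouse-160A tumor decided this value. It held 59 TRBV31 barcodes, of which 86.4% had a single TRB transcript against 51.6% of its other barcodes. Without this table, an alternative added after seeing the data, the difference was 0.941 points at an adjusted p of 0.0495 (exact test). The share of genes that passed in that setting is not given. Without both tables of mouse-160A it was 1.04 points at an adjusted p of 0.0848 (exact test), which is not a call.

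The second chain was of another V gene in 662 TRBV31 barcodes. TRBV12-2 was the most frequent with 76 (11.5% of the 662), and was the first chain of 5.26% of barcodes without TRBV31. TRBV13-2 followed with 71 (10.7%) and a share of 11.1% of such barcodes, and TRBV12-1 with 47 (7.10%) and a share of 8.84%. Shares among first chains are not shares among second chains, which are not given for other genes. These are barcodes summed over all tables and not distinct chains, so copies of 1 clone count repeatedly, and no difference was tested. TRBV31 was in turn the second chain of 652 barcodes with another first gene, so that 1314 of 17998 barcodes with 2 TRBV genes (7.30%) included it. Either of the 2 chains counts here, so this share is not to be set against the 3.15% of primary chains. Both chains were TRBV31 with different J genes in 22 barcodes of 8 tables, of which 11 had at least 2 transcripts of each chain. At 0.371% of its barcodes, TRBV31 ranked 16th of the 20 TRBV genes with at least 1000 barcodes for such same-gene pairs. It was also 16th by median share of barcodes, and TRBV13-2, the most used gene, had the highest share of such pairs. Not all genes kept their order, as TRBV12-2 was 9th by usage and 17th for such pairs, and TRBV5 was 11th and 6th. A relation of this rank to usage was not tested.

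A further 116 second chains shared V and J gene with the first, and 98 of them (84.5%) differed from it by at most 2 residues. A single transcript supported 94.0% of the 116, against 62.1% of the second chains of another V or J gene. In 19 of them the first chain began with CAWSP and the second with CAWSL, the rest of the CDR3 being identical in 18, whereas the reverse order was found in 0. There were 31 chains beginning with CAWSP and 34 with CAWSL among the first chains of the 116. When second chains with the V and J gene of the first were left out, TRBV31 exceeded the others by 0.637 points (adjusted p = 0.650, exact test).

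TRBV31 barcodes less often came with a TCRα (TRA) chain, but the difference did not pass after adjustment. The TRA-paired share was 36.6% (mouse-164C), 35.4% (mouse-164B), 35.2% (mouse-160B), 26.2% (mouse-160C), 24.8% (mouse-160A), 23.4% (mouse-155A) and 15.8% (mouse-155C). It was below that of other TRBV barcodes in 7 of 7 mice, by a mean of 4.76 points ± 2.04 (SD, n = 7, exact sign-flip permutation test, adjusted p = 0.0563). The unadjusted p of this exact test was 0.0156, the smallest that 7 mice can give and the same as for the TRBJ1 share. Of the 18 genes, 0% passed after adjustment and 44.4% at an unadjusted p under 0.05. The call was gained when distinct chains were counted (-3.27 points, adjusted p = 0.0352, exact test) or in thymus tables alone (-4.37 points, adjusted p = 0.0391). The share of genes that passed under either setting is not given, so the gained call cannot be read as particular to TRBV31. The number of TRB transcripts differed by -0.06 on the log2 scale ± 0.17 (SD, n = 7 mice, exact test, adjusted p = 0.820), with 0% of the 18 genes passing and 33.3% under an unadjusted p of 0.05. Within thymus tables TRBV31 barcodes carried more transcripts than others in 7 of 7 mice, by 0.10 ± 0.05 on the log2 scale (SD, adjusted p = 0.0284, exact test), where 55% of 20 genes passed. In spleen both tables were lower, by 0.07 and 0.10, and in tumors the differences ran from -1.07 to 0.04, with mouse-160A tumor the lowest.

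The 1851 TRBV31 barcodes with a TRA chain gave 1596 distinct pairs. Their most used TRAV genes were TRAV12-1 with a median of 8.25% over mice, TRAV3-1 with 5.78% and TRAV14D-1 with 5.01%. The most used TRAJ genes were TRAJ22 with 10.65%, TRAJ31 with 6.01% and TRAJ23 with 4.64%. Of 50 TRAV and 41 TRAJ genes tested against pairs of other TRBV genes, 0% passed after adjustment, and the lowest adjusted p was 0.355 (exact sign-flip permutation test over 7 mice). At an unadjusted p under 0.05 there were 6 genes (6.59%), named here for that. TRAJ18, TRAV11, TRAJ45 and TRAJ13 were lower with TRBV31 in 7 of 7 mice, TRAV12D-1 in 6 of 7, and TRAJ22 was higher in 6 of 7.

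Invariant NKT-like cells, which pair TRAV11 with TRAJ18 and in mice favour a few β chains, were few among TRBV31 cells. Of TRBV31 barcodes with a TRA chain in thymus tables they made up 1.83% (mouse-164B), 2.94% (mouse-155C), 3.12% (mouse-160C), 4.08% (mouse-160B), 4.11% (mouse-160A), 4.79% (mouse-164C) and 5.66% (mouse-155A). Other TRBV barcodes of these tables ranged from 6.02% to 11.1%. In spleen and tumor together there was 1 such cell among 1052 TRBV31 barcodes with a TRA chain. Over all tables the difference was -2.62 points ± 0.869 (SD, n = 7 mice, exact sign-flip permutation test, adjusted p = 0.0176), lower in 7 of 7 mice. All 18 genes (100%) passed this test and 77.8% as lower. TRBV13-2, TRBV13-1, TRBV1, TRBV29 and TRBV13-3 stood above TRBV31, which ranked 6th. Against the median of the other TRBV genes TRBV31 was higher by 0.903 points (adjusted p = 0.0281, exact test), so the direction depends on these few genes.

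The 29 invariant NKT-like TRBV31 cells had 29 different TRB CDR3 sequences, and 25 carried the same TRA CDR3 sequence. A second TRB chain was recorded in 8 of the 29, of TRBV13-2 in 5, and 13 had a single TRA transcript. For comparison, 21.2% of all TRBV31 barcodes with a TRA chain in thymus tables had a second TRB chain. TRBV31 was present in 1.15% of the 2426 invariant NKT-like thymus barcodes. MAIT-like cells (TRAV1 with TRAJ33) numbered 0 of 1851, which allows a share of up to 0.162% if the barcodes are taken as independent. Shared barcodes and clones are not. The MAIT-like share among other TRBV barcodes is not given, so the count cannot be read as a trait of TRBV31.

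The TRBV31 clones of at least 5 cells all came from tumor tables. A clonotype joins 1 TRA and 1 TRB CDR3, compared as amino acids, and 38 of 1594 TRBV31 clonotypes held more than 1 cell. The share of paired TRBV31 cells in such clonotypes was 69.5% in mouse-160C tumor, 44.8% in mouse-164B tumor, 19.9% in mouse-164C tumor and 17.5% in mouse-160B tumor. Other TRBV genes of these tables reached 70.8%, 50.8%, 22.7% and 22.0%. In mouse-160A tumor 10 TRBV31 clonotypes of 1 cell each were found, while 80.0% of the paired cells of other TRBV genes there belonged to clonotypes of more than 1 cell. In spleen and thymus the TRBV31 share was 0%, except for mouse-155C thymus, where 3 of 34 cells (8.82%) were 1 clonotype. Other TRBV genes of the spleen and thymus tables were also low, from 0.344% (mouse-155A thymus) to 5.62% (mouse-160B thymus). Paired TRBV31 cells numbered only 33 (mouse-155C spleen) to 218 (mouse-164B thymus) per table there, and the difference was not tested.

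Clonotypes of at least 5 cells numbered 9, in 4 tumor tables. The CDR3 nucleotides of the 5 leading chains are shown because they tell the clones apart and can be read against the germline end. Capitals mark the bases that match it, and each chain is called here by its J gene.
TRBJ1-5 chain, mouse-160C tumor: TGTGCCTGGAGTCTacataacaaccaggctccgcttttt
TRBJ1-1 chain, mouse-164C tumor: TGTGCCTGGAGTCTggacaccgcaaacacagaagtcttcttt
TRBJ2-1 chain, mouse-164B tumor: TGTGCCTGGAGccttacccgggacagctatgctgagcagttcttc
TRBJ2-7 chain, mouse-160C tumor: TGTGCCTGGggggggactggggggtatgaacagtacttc
TRBJ1-2 chain, mouse-160C tumor: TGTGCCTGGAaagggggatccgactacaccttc
The end of TRBV31 was intact in the TRBJ1-5 and TRBJ1-1 chains, and 11 of its 14 bases were kept in the TRBJ2-1 chain and 9 in the TRBJ2-7 chain. The TRBJ2-7 chain was paired with a chain of TRAV6-5 and TRAJ50 in 60 cells of mouse-160C tumor, 1.60% of the paired cells of that table (exact 95% interval 1.22% to 2.05%). The TRBJ1-1 chain was paired with TRAV6N-5 and TRAJ15 in 60 cells of mouse-164C tumor, 0.452% of its paired cells (0.345% to 0.581%). The TRBJ2-1 chain was paired with TRAV9D-3 and TRAJ37 in 55 cells of mouse-164B tumor, 0.933% of its paired cells (0.704% to 1.21%). These 3 were the clonotypes above 12 cells. The TRBJ1-2 chain was found with TRAV10 and TRAJ22 in 12 cells of mouse-160C tumor. The other clonotypes of this size had 6 or 8 cells. Mouse-160B tumor held clonotypes of at most 6 cells.

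The TRBJ1-5 chain, the most frequent TRBV31 chain, was nearly without a partner. It was carried by 385 barcodes of mouse-160C tumor, 2.86% of all TRB barcodes there, and 50 of them (12.99%) had a TRA chain. Those 50 held 32 different TRA CDR3 sequences, of which the most frequent, of TRAV6-5 and TRAJ13, occurred in 8 cells. The TRBJ1-1, TRBJ2-1 and TRBJ2-7 chains were paired in 60.2%, 65.6% and 68.8% of the barcodes of their tumor table. A single TRB transcript was recorded in 34.5% of the 385 barcodes, against 51.9%, 30.1% and 40.9% for those 3 chains, and the part of depth in the missing TRA chains was not tested. With shared barcodes collapsed, 13.3% of 377 barcodes were paired. A clonotype table, which needs both chains, thus shows at most 8 cells together where 385 carried the chain.

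The 4 chains found in all 7 mice were the TRBJ1-5, TRBJ1-1, TRBJ2-1 and TRBJ2-7 chains just described. Of 3236 distinct TRBV31 chains over all tables, 731 (22.6%) occurred in more than 1 mouse, against 21.4% for other TRBV genes. With shared barcodes collapsed this fell to 258 of 3171 (8.14%), against 9.77% for other genes.

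**Figure D5:**
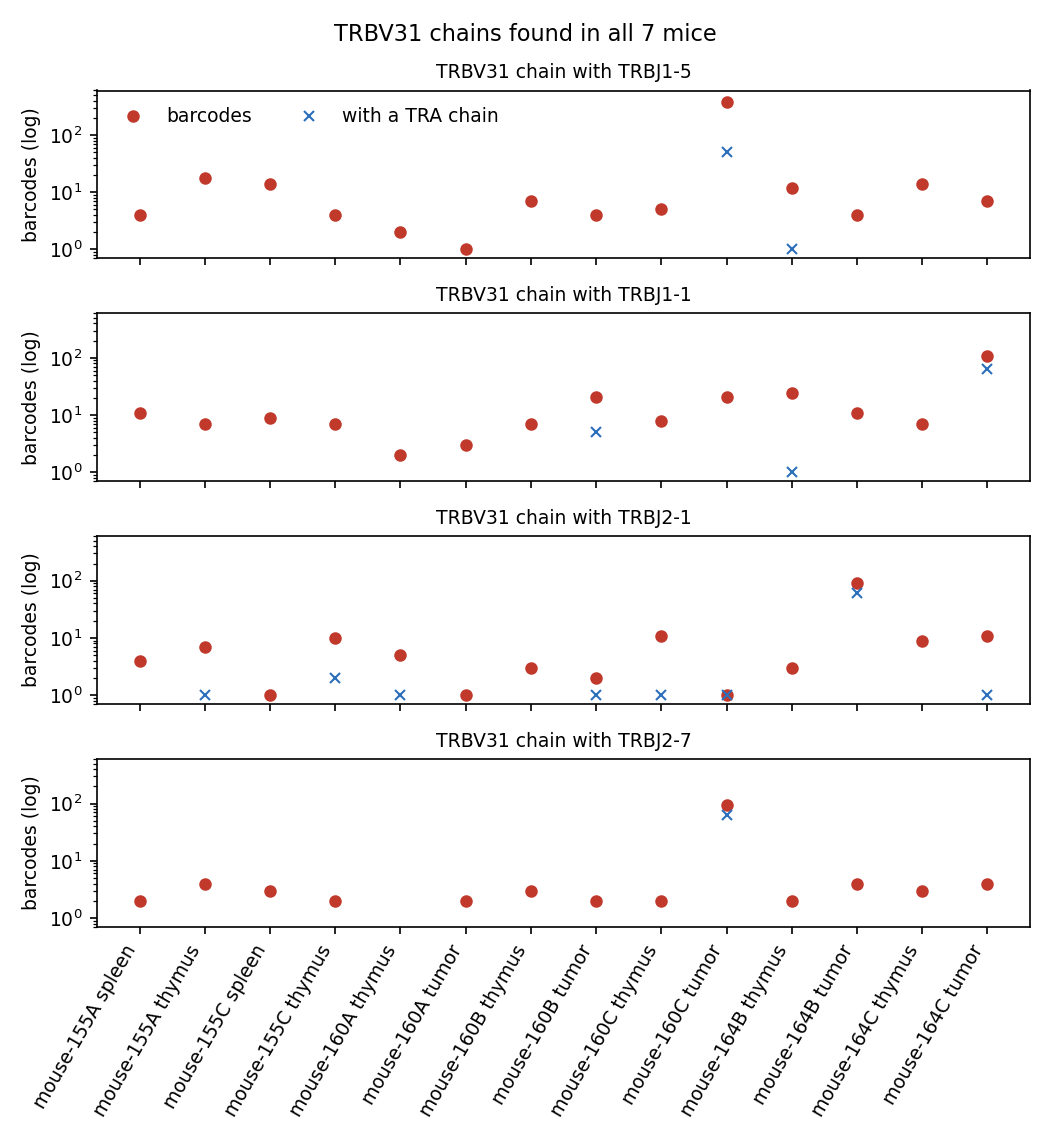
Barcodes per table (red, log axis) and those with a TRA chain (blue crosses) for the 4 TRBV31 chains found in all 7 mice, named by their J gene. A table without a point had 0, and each chain has 1 tumor table with 93 to 385 barcodes and at most 24 in any other table.

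The TRBJ1-5 chain had 1 to 18 barcodes in each table other than mouse-160C tumor, 96 in all, of which 98.96% had 1 transcript and 1 had a TRA chain. The TRBJ1-1 chain had 138 barcodes outside mouse-164C tumor, 99.3% with 1 transcript and 6 paired, and 1 of them carried the TRA chain of the tumor clonotype. The TRBJ2-1 chain had 68 outside mouse-164B tumor, 98.5% with 1 transcript and 8 paired, and 1 of them likewise carried the TRA chain of the tumor clonotype. The TRBJ2-7 chain had 33 outside mouse-160C tumor, 96.97% with 1 transcript and 0 paired. The nucleotide CDR3 was the same in at least 99.4% of the annotated barcodes of each chain. Of the barcodes in other mice, 35.2% of those with the TRBJ1-5 chain lay in the same later wells and sublibrary as a barcode of its tumor table, as did 15.3%, 36.9% and 41.9% for the TRBJ1-1, TRBJ2-1 and TRBJ2-7 chains. Barcodes of other mice with other TRBV31 chains matched those wells in at most 0.508% of cases. After collapsing, the TRBJ2-7 chain was left in 6 mice and the other 3 in 7. The next most widespread chain, of TRBJ2-2, was in 6 mice with 15 barcodes, 7 of them in mouse-160B tumor, and in 3 mice after collapsing. These values cannot tell a chain made separately in several mice from one carried between tables, and the cause was not tested.

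Clonotypes present in both tables of a mouse numbered 3, each in another mouse, and the CDR3 nucleotides of their TRB chains are shown in the same way.
Mouse-155C, TRBJ2-5: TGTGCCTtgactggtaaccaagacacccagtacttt
Mouse-160A, TRBJ2-3: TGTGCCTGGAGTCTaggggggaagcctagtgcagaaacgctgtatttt
Mouse-164B, TRBJ2-4: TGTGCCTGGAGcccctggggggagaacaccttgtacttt
In mouse-155C the clonotype, with TRAV5-4 and TRAJ26, was in 3 thymus cells and 1 spleen cell. In mouse-160A, with TRAV6-4 and TRAJ32, it was in 1 thymus and 1 tumor cell, and in mouse-164B, with TRAV6-6 and TRAJ23, in 1 thymus cell and 2 tumor cells. None of the 3 was among the clonotypes of at least 5 cells. The corresponding share for other TRBV genes is not given, and the 3 were not recounted with shared barcodes collapsed. Whether they were in both tissues or were carried between tables was not tested.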

How the data were processed

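Thymic, splenic and tumor-infiltrating CD8+ T cells were processed with the Parse Evercode TCR kit in 8 sublibraries, which the labels put in no group. The authors assembled the chains with the Parse Biosciences TCR pipeline and deposited, per barcode, the transcript count of each TRA and TRB chain, with multiplets marked. The 732 TRBV31 barcodes with such a mark were left out. Clonotypes were counted from these tables, and the deposited clonotype tables were not used here. The chain annotation held here covers part of the barcodes of 3 tables. The alignment build named by the submitters' processing notes is GRCm39, which is also that of the genome used for coordinates. Its version, with the TCR gene reference behind it, was not given in the sources used here. Depth was 5281 to 29894 TRB barcodes per table, 59 to 826 of them TRBV31, and exact 95% binomial intervals cover counting error only. Mouse and tissue stand in the table names and not in the labels, so tissues were described and not tested.

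TRBV31 was compared with all other TRBV chains of the same table. Differences were averaged over the tables of a mouse and tested by exact two-sided sign-flip permutation over 7 mice, for each TRBV gene with at least 20 distinct chains in every table, with Benjamini–Hochberg adjustment over those genes. The exact sign-flip test gives its smallest p, 0.0156, whenever all 7 differences share a sign, whatever their spread. The adjusted value then depends only on the p-values of the other TRBV genes. The p-values rest on these mice alone. The paper's TCR comparisons included both control and Pdcd1 cKO mice, and which mouse had which genotype is not labelled. TRA partners were tested likewise for genes with a share of at least 0.5%. Code was tested on simulated data and run with Python 3.11.15, pandas 2.3.3, NumPy 2.4.6, SciPy 1.17.1 and pysam 0.24.0. Named were TRBV31, its neighbours in rank, the 3 TRBV genes most alike in pattern, the 3 most used and the least used TRBJ genes, the 3 most used TRAV and TRAJ genes, the 3 most frequent second TRBV genes, the largest clonotypes of at least 5 cells, the clonotypes of both tables and the most widespread chains. The members and lists were chosen with earlier results of these data known.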

Additional observations from a re-analysis of the deposited data

How the results depend on the processing

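The median TRBV31 share of barcodes, 3.07%, was 2.68% in paired barcodes, 2.88% with at least 2 transcripts, 3.41% by transcripts, 2.91% with shared barcodes collapsed and 2.91% without the TRBJ1-5 tumor chain, the last 2 chosen after seeing the data. Leaving out 1 sublibrary gave 2.98% to 3.13%. By distinct chains, 3.21%, it was 2.87% in paired barcodes, 3.02% with at least 2 transcripts, 3.10% without chains of more than 1 mouse and 3.03% collapsed, and 3.17% to 3.26% without 1 sublibrary. The number of mice with a lower share of distinct chains in the second tissue fell from 5 to 3 when nucleotide CDR3 sequences were counted, where 3 tables are annotated only in part, and was 4 to 7 without 1 sublibrary. The TRBJ1 difference lost its call with cells counted (9.90 points, adjusted p = 0.0563, exact test), with at least 2 transcripts (4.45) and collapsed (5.98), and without 1 mouse ran from 5.37 to 7.34, all called. The CDR3 length and TRBD1 differences kept direction and call in all alternatives run. The second-chain difference turned to -0.501 points with multiplets kept, ran from -0.371 to 1.04 without 1 mouse (1.04 without mouse-160A) and reached 0.941 without mouse-160A tumor, an alternative added after seeing the data. It was 2.69 points with at least 2 transcripts, 1.98 without chains of more than 1 mouse and 1.18 in thymus tables, with adjusted p of 0.205, 0.119 and 0.0521 by the exact test. The TRA-paired difference passed with distinct chains (-3.27) and in thymus tables (-4.37), settings for which the share of genes passing is not given. It was smaller and not called without chains of more than 1 mouse (-2.43, adjusted p = 0.0742, exact test), against the median of the other TRBV genes (-3.00, adjusted p = 0.0563) and with at least 2 transcripts (-3.44, adjusted p = 0.293), and was -5.09 to -4.04 without 1 mouse. The transcript difference, on the log2 scale, turned to 0.00589 with distinct chains, 0.0803 with at least 2 transcripts, 0.10 in thymus tables and 0.0728 without chains of more than 1 mouse, and ran from -0.0849 to 0.000598 without 1 mouse, the last without mouse-160A. The invariant NKT-like difference turned to 0.903 against the median of the other TRBV genes. Causes were not tested. The tables of a mouse were not tested against each other, since mouse and tissue stand in the table names and not in the labels. Depth limits most the values of mouse-160A tumor, the table with the fewest TRBV31 barcodes (59).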
